A study of Mus musculus with 4 samples.

Results

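ATF4 amino acid genes and endoplasmic reticulum (ER) chaperone genes were followed in NMuMG cells, an established mouse mammary epithelial cell line, before and after 24 h of TGFβ. The members are 37 genes given by symbol and matched to the Ensembl identifiers of the count table, out of 21971 genes in it. They form 2 arms, 25 genes of the ATF4 amino acid arm and 12 genes of the ER chaperone arm. All 37 were found in the table. All but Slc7a3 passed the filter on low counts, so 36 members were tested, 24 and 12 in the respective arms.

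The cells carried a stably overexpressed mutant of human TRF1, a telomere-binding protein (TRF1ΔN), or the same protein joined to the Vp16 transcription activation domain (Vp16-TRF1ΔN), which the series description uses to raise TERRA-like RNA. Each line was sequenced without TGFβ (0 h) and again once TGFβ (5 ng/ml) had been present for 24 h, which gives 4 groups of 1 library each and no replicates. All 4 libraries carried a TRF1ΔN construct, and no library of unmodified NMuMG cells was among them. No library kept for 24 h without TGFβ is named in the labels, so TGFβ and time in culture cannot be told apart, and they do not say whether a line was a clone or a pool.

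The libraries held 35418985 to 45983910 counts. The construct row TRF1DN took 1863 (0 h) and 7798 (24 h) counts for TRF1ΔN cells against 123 and 159 for Vp16-TRF1ΔN cells, and the row VP16 had 0 and 1 against 15 and 27. The amount of construct and the Vp16 domain therefore cannot be told apart in any difference between the lines. The row TRF1DN also differed between 0 h and 24 h within a line. Scaled to library size (CPM), TRF1DN stood at 39.1 and 185 in TRF1ΔN cells and at 2.85 and 4.64 in Vp16-TRF1ΔN cells. The remaining construct rows differed by other amounts. Vec_part1 stood at 8.86 and 26.9 CPM in TRF1ΔN cells and at 0.742 and 0.963 CPM in Vp16-TRF1ΔN cells. Vec_part2, the construct row with the most counts, stood at 312 and 388 CPM in TRF1ΔN cells and at 129 and 127 CPM in Vp16-TRF1ΔN cells. The part of construct amount in the TGFβ changes within each line was not tested. Mitochondrially encoded RNA took 10.2% and 13.3% of the counts at 0 h and 24 h in the TRF1ΔN line and 11.4% and 15.7% in the Vp16-TRF1ΔN line, and its part in the results was not tested beyond leaving those genes out of the scaling. Of the 7 epithelial markers in the table, Krt8 and Krt18 had at least 65274 counts in every library, Cdh1 had 17416, 4515, 15872 and 5680, Krt19 had 74570, 3481, 71026 and 9254, and Cldn4 had 1, 563, 1 and 152, whereas Epcam had at most 18 and Esrp1 at most 3. With TGFβ, Cdh1 and Krt19 fell and Krt8, Krt18 and Cldn4 rose (edgeR). Of the 5 fibroblast markers, Col1a1 (35, 778, 46 and 328 counts), Pdgfrb (0, 217, 1 and 36) and Pdgfra (26, 114, 33 and 75) were tested and all 3 rose with TGFβ (edgeR), while Dcn had at most 2 counts and Col1a2 at most 16. Ptprc (leukocytes) had at most 7 counts, Pecam1 (endothelium) at most 3 and Adipoq (adipocytes) at most 1. Other genes of those lists were present, and of these Cd68 and Pparg did not pass (edgeR). Csf1r (1, 101, 2 and 21 counts) and Cdh5 (4, 50, 5 and 24) rose with TGFβ (edgeR). Flt1 (5179, 1543, 5016 and 1581 counts) and Egfl7 (209, 34, 202 and 42), from the same list as Cdh5, fell (edgeR). Lyz2, from the same list as Csf1r, had 10, 0, 9 and 0 counts and was not tested. The part of these markers in the changes of both arms was not tested.

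ATF4 is a transcription factor whose translation rises when eIF2α is phosphorylated by kinases that sense amino acid shortage, ER stress, haem deficiency or viral RNA. With C/EBP partners it binds a short element near genes of amino acid synthesis, import and tRNA charging, and it also drives Ddit3 (CHOP), Trib3 and Chac1 under stress. The unfolded protein response of the ER has further sensors, ATF6 and IRE1 with its target XBP1, which raise ER chaperones, disulfide isomerases and degradation factors through ER stress response elements. ATF4 itself is controlled mostly at translation, so the level of its mRNA is not a measure of its activity.

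Promoter sequences were examined first, for the elements that these factors bind. In windows from 250 bases before to 50 bases after the gene start (RefSeq, GRCm38.p6), the letters TGATGNAA, the core of the amino acid response element, were searched on both strands. They were present for 8 of the 21 ATF4-arm members with a window (Aars, Asns, Chac1, Nupr1, Slc1a4, Slc7a11, Trib3 and Vldlr), and for 4.51% of all 27025 genes with a window. In the ER chaperone arm 1 of 11 members, Herpud1, had them. The ER stress response element, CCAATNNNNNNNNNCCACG on either strand, was present for Calr, Hsp90b1 and Hspa5 and for 0.137% of all genes. Its second form, ATTGGNCCACG, was present for Herpud1 and for 0.044% of all genes, and TGACGTGG, which shares letters with both, for none of the 32 members and 0.714% of all genes. A match describes letters in a window and not a bound site. The members were listed as genes of these pathways, so their shares beside those of all genes are descriptive and test nothing.

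The 6 stretches below are the 250 bases before the start, 5′ to 3′ on the gene's strand, in lower case with the matched element in capitals. Slc7a11, Nupr1, Chac1, Asns and Herpud1 were chosen because they share the amino acid response element and moved differently with TGFβ, and Hspa5 as a holder of the ER stress response element: Slc7a11 had the largest fall, Nupr1 rose, Chac1 was higher in 1 line, Asns fell slightly, Herpud1 fell and Hspa5 did not pass the test. The stretches lie at chr3:50443614-50443863 (Slc7a11, minus strand), chr7:126625471-126625720 (Nupr1, minus), chr2:119350992-119351241 (Chac1, plus), chr6:7693210-7693459 (Asns, minus), chr8:94386179-94386428 (Herpud1, plus) and chr2:34771840-34772089 (Hspa5, plus).
Slc7a11: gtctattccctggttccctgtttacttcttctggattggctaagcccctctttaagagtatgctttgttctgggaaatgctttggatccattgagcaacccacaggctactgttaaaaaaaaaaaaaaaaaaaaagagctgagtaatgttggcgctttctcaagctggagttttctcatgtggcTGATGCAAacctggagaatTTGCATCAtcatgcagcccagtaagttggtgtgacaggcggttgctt
Nupr1: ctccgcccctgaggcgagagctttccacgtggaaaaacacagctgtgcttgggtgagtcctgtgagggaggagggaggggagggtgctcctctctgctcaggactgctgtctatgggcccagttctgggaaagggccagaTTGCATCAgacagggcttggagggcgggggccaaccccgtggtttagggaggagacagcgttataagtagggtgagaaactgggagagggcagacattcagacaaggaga
Chac1: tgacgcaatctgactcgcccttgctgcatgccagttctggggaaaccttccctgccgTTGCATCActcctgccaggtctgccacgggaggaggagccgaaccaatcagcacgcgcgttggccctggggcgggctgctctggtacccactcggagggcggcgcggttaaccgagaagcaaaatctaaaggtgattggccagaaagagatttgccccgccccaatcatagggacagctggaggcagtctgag
Asns: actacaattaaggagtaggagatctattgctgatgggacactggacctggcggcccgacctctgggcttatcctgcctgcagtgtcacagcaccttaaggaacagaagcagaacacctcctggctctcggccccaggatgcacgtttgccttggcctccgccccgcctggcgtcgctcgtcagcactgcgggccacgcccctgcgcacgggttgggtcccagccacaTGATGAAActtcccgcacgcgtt
Herpud1: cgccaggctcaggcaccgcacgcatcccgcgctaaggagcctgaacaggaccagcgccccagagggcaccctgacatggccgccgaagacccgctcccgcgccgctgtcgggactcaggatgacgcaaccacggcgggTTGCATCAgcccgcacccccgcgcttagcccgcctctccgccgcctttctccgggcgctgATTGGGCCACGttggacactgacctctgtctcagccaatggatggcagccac
Hspa5: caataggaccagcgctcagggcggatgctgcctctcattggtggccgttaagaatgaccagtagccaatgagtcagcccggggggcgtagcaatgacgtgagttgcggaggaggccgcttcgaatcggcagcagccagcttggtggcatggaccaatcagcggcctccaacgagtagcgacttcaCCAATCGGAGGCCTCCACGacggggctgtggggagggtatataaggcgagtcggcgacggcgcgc
Slc7a11 held the element at 2 positions, as TGATGCAA at -66 to -59 and as its reverse complement TTGCATCA at -47 to -40, counted from the start. The same letters TTGCATCA stood at -110 to -103 in Nupr1, at -193 to -186 in Chac1 and at -112 to -105 in Herpud1.

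With TGFβ, most of the ATF4 amino acid arm fell. In an additive fit over all 4 libraries, with terms for TGFβ and for the line (edgeR quasi-likelihood test, adjusted p under 0.05 over 14305 genes), 15 of its 24 tested members fell, 2 rose and 7 did not pass. With no term for the line, 7 fell without the untreated TRF1ΔN library and 9 without the untreated Vp16-TRF1ΔN library. Of all genes tested 48.5% were called, 25.4% falling and 23.1% rising. The median log2 change of the arm was -0.49, against -0.01 for all genes tested. Serine synthesis, cystine and glutamine import and cystathionine cleavage held the largest falls, while Nupr1 and Cbs rose. For 16 of the 24 members both 24 h libraries lay below both 0 h libraries, and for 3 above, against 40.4% and 38.3% of the 11777 genes that averaged 1 CPM or more (CPM being the count scaled to library size). The spread in this fit rests on 1 residual degree of freedom, which is the difference between the TGFβ responses of the lines. It also draws on other genes. No group held replicates, so the p-values do not measure spread between cultures. A member with unlike responses in the lines passes less easily. In bulk RNA a change in the cells' make-up and a change in RNA per cell cannot be told apart.

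**Figure D1:**
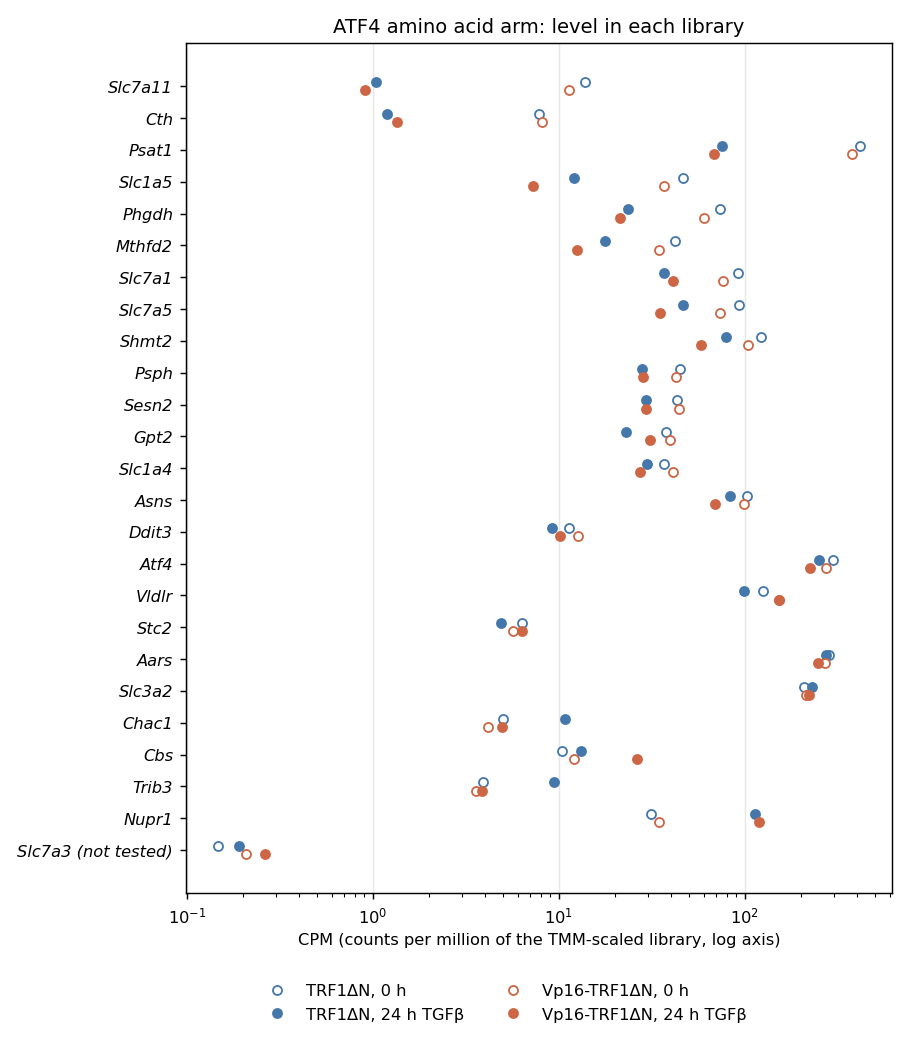
Level of each member of the ATF4 amino acid arm in the 4 libraries, in CPM on a log axis, ordered by the average change with TGFβ; open points are 0 h, filled points 24 h, blue the TRF1ΔN line and orange the Vp16-TRF1ΔN line, 1 library per point. Both filled points lie left of both open points for 16 members. The shift is largest for Slc7a11, from 13.8 to 1.05 CPM and from 11.3 to 0.905 CPM in the respective lines.

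The regulators of the response moved little or in unlike directions. Atf4 stood at 297 CPM (TRF1ΔN, 0 h), 250 CPM (TRF1ΔN, 24 h), 272 CPM (Vp16-TRF1ΔN, 0 h) and 224 CPM (Vp16-TRF1ΔN, 24 h), and values below follow this order of libraries. Both treated libraries were lower, and Atf4 fell, with a log2 change of -0.26 ± 0.06 (SE) (adjusted p = 0.0274, edgeR). DESeq2's Wald test did not call it (adjusted p = 0.0757), nor did edgeR without a term for the line (adjusted p = 0.084), there also without either untreated library or the treated Vp16-TRF1ΔN library (-0.32 to -0.19). Ddit3, which encodes the pro-apoptotic factor CHOP, had 539, 386, 546 and 347 counts, and its log2 change of -0.31 ± 0.10 did not pass (adjusted p = 0.0659, edgeR). In the annotation used here its exons overlap other entries over 186 bases. These are Mars and Gm4189 on the other strand and a further entry, also named Ddit3, on the same strand. The strand setting of the counting is not given in the sources used here. Sesn2, a stress-induced inhibitor of mTORC1, fell by 0.57 ± 0.07, with 43.4, 29.4, 44.2 and 29.5 CPM (adjusted p = 0.00502, edgeR).

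Nupr1, a small stress-induced chromatin protein and a known ATF4 target, went the other way. It stood at 31.2, 113, 34.4 and 119.7 CPM, so that the groups of untreated and treated libraries were far apart and the lines were alike. It rose by 1.83 ± 0.07 on the log2 scale (adjusted p = 0.000858, edgeR), 3.63-fold in the TRF1ΔN line (95% counting interval 3.43 to 3.85) and 3.48-fold in the Vp16-TRF1ΔN line (3.28 to 3.69). It was the sole member of this arm that was called and at least 2-fold higher in both lines, which held for 7.28% of all genes tested (8.61% by the average change alone). In the other direction 7 members met that rule, against 8.91% of all genes (10.4% by the average change alone).

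The pathway from glycolysis to serine and one-carbon units fell at every member step. Phgdh, the first enzyme of serine synthesis, stood at 73.6, 23.6, 60.3 and 21.3 CPM and fell by 1.57 ± 0.08 on the log2 scale. Psat1, the aminotransferase of the next step, stood at 418, 75.1, 377 and 68.3 CPM and fell by 2.47 ± 0.07. Psph, the phosphatase that completes serine, stood at 44.8, 27.9, 42.6 and 28.3 CPM and fell by 0.64 ± 0.07. Untreated and treated libraries did not overlap for these enzymes, as for most genes (40.4% lower and 38.3% higher), and adjusted p lay between 0.000858 and 0.00439 (edgeR). Per kilobase of exon, Psat1 was the most abundant of these enzymes at 0 h (98.2 CPM per kb in the TRF1ΔN line, against 29.6 for Phgdh and 10.4 for Psph), and at 24 h Psat1 stood at 17.7. Summed over these enzymes the level was 536, 127, 480 and 118 CPM. Phgdh has annotated copies whose transcripts are up to 98.7% identical (Gm7901), with at most 47 counts in a library, and the exons of Psph overlap those of the abundant gene Cct6a on the other strand over 452 bases, so reads may be split or shared.

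The mitochondrial enzymes that use serine followed. Shmt2, which takes a carbon unit from serine, stood at 122, 79.1, 104 and 57.98 CPM and fell by 0.73 ± 0.08 (adjusted p = 0.00379, edgeR). Mthfd2, which oxidises the resulting folate, stood at 42.2, 17.7, 34.5 and 12.6 CPM and fell by 1.35 ± 0.09 (adjusted p = 0.00150, edgeR). Mthfd2 was 2.38-fold lower in the TRF1ΔN line (2.19 to 2.60) and 2.75-fold lower in the Vp16-TRF1ΔN line (2.47 to 3.07).

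The enzymes of transsulfuration, which make cysteine from homocysteine, parted. Cth, which releases cysteine from cystathionine, had 374, 50, 349 and 46 counts and fell, with a log2 change of -2.66 ± 0.17 (adjusted p = 0.00138, edgeR). It was 6.61-fold lower in the TRF1ΔN line (4.91 to 9.07) and 6.03-fold lower in the Vp16-TRF1ΔN line (4.43 to 8.39). Cbs, which makes cystathionine in the step before, had 498, 552, 523 and 899 counts and rose by 0.73 ± 0.21 (adjusted p = 0.0460, edgeR), mostly through the treated Vp16-TRF1ΔN library. Without a term for the line the call on Cbs was lost (adjusted p = 0.121), and without the treated Vp16-TRF1ΔN library its change was 0.21. Chac1, which breaks down glutathione and so releases its amino acids, had 239, 452, 179 and 170 counts, and its average change did not pass (adjusted p = 0.0730, edgeR). Without a filter on low counts it was called (adjusted p = 0.0183).

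Among amino acid transporters, 5 of the 6 tested members fell, against 25.4% of all genes. Slc7a11, the cystine carrier of the exchanger xCT, had 658, 44, 487 and 31 counts, the largest change of the arm (-3.68 ± 0.16 on the log2 scale, adjusted p = 0.000858, edgeR). It was 13.2-fold lower in the TRF1ΔN line (9.73 to 18.4) and 12.5-fold lower in the Vp16-TRF1ΔN line (8.68 to 18.6). A stretch of 373 bases of its longest transcript is near-identical to α-tubulin transcripts (95.98% for Tuba1a, which had 1865, 11373, 1210 and 5031 counts). Slc1a5, a carrier of glutamine and other neutral amino acids, stood at 46.4, 12.1, 36.8 and 7.24 CPM and fell by 2.13 ± 0.13 (adjusted p = 0.00125, edgeR).

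Slc7a5, the light chain of the leucine exchanger LAT1, fell by 1.04 ± 0.07, with 93.3, 46.3, 73.6 and 34.8 CPM (adjusted p = 0.00139, edgeR); without the untreated TRF1ΔN library and the line term its change was -0.86 and did not pass. Slc3a2, the heavy chain that Slc7a5 and Slc7a11 both need at the cell surface, had nearly level values of 208, 229, 213 and 222 CPM, and its change of 0.10 ± 0.06 did not pass (adjusted p = 0.255). Slc7a1, the carrier of arginine and lysine, stood at 92.2, 36.9, 76.7 and 41.1 CPM and fell by 1.11 ± 0.12 (adjusted p = 0.00370, edgeR). Slc1a4, a carrier of alanine and serine, fell by 0.45 ± 0.10 (adjusted p = 0.0225, edgeR). Slc7a3, another carrier of cationic amino acids, had 7, 8, 9 and 9 counts and was not tested.

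The remaining metabolic members changed by at most 0.53 on the log2 scale. Asns, the asparagine synthetase, stood at 103, 83.2, 98.8 and 69.4 CPM and fell by 0.41 ± 0.08 (adjusted p = 0.0158, edgeR). Gpt2, a mitochondrial alanine aminotransferase, stood at 37.7, 23.1, 39.7 and 31.1 CPM and fell by 0.53 ± 0.11 (adjusted p = 0.0197, edgeR). Aars, the alanyl-tRNA synthetase, at 283, 271, 270 and 246 CPM, did not pass (-0.10 ± 0.06 on the log2 scale, adjusted p = 0.283, edgeR), and its annotated exons share 1326 bases with transcripts of Exosc6. The lipoprotein receptor gene Vldlr (adjusted p = 0.245) and Stc2, which encodes a secreted glycoprotein hormone (adjusted p = 0.680), did not pass in edgeR either. Vldlr stood at 125, 98.6, 153 and 153 CPM, and Stc2 had 303, 206, 243 and 218 counts.

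The ER chaperone arm moved less and in both directions. Of its 12 members 6 rose, 3 fell and 3 did not pass (edgeR, background 23.1% and 25.4% as above), with a median log2 change of 0.185. Creb3l2 and Herpud1 alone were called and at least 2-fold changed in both lines, upward and downward respectively, near the shares of 7.28% and 8.91% over all genes, and the other called members changed by 0.28 to 0.51 on the log2 scale in either direction. For 7 members both treated libraries lay above both untreated ones, for 4 below, against 38.3% and 40.4% of all genes, and Hspa5 overlapped. Without a term for the line, 1 member rose and 1 fell when either untreated library was left out, and 3 rose without the treated TRF1ΔN library.

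**Figure D2:**
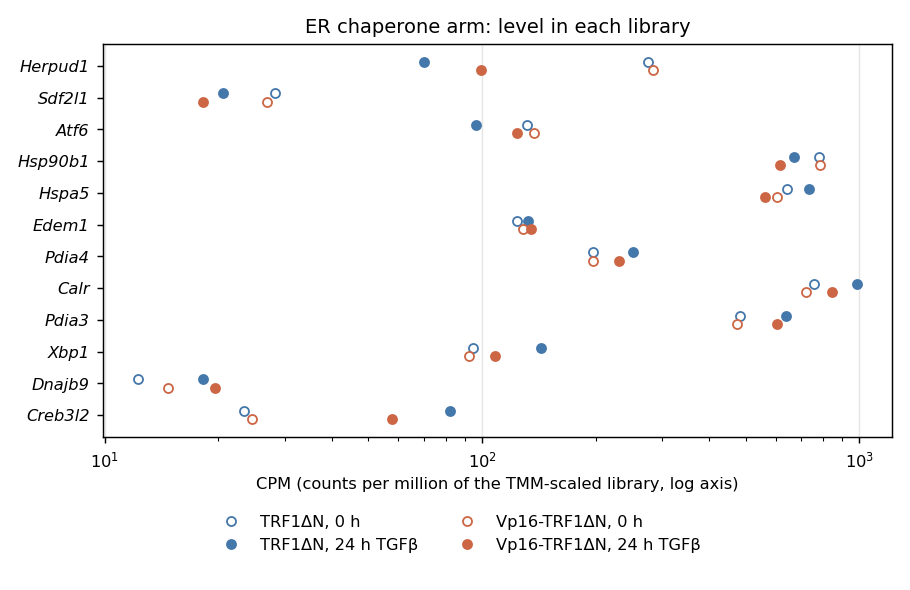
Level of each member of the ER chaperone arm in the 4 libraries, in CPM on a log axis, ordered by the average change with TGFβ; open points are 0 h, filled points 24 h, blue the TRF1ΔN line and orange the Vp16-TRF1ΔN line, 1 library per point. From 0 h to 24 h, the shift to the left is largest for Herpud1 (70.4 and 99.6 CPM against 275 and 283 CPM). The shift to the right is largest for Creb3l2 (82.0 and 57.9 CPM against 23.4 and 24.6 CPM).

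The most abundant chaperones shifted by small amounts. Hspa5, the lumenal Hsp70 also called BiP, stood at 644, 735, 604 and 561 CPM: the treated library was higher in 1 line and lower in the other, and the average change of 0.04 ± 0.10 did not pass (adjusted p = 0.749, edgeR). Hsp90b1, the lumenal Hsp90, stood at 781, 672, 787 and 618 CPM and fell by 0.28 ± 0.07 (adjusted p = 0.0323, edgeR). Calr, the lectin chaperone calreticulin, stood at 756, 983, 721 and 845 CPM and rose by 0.30 ± 0.07 (adjusted p = 0.0287, edgeR). Hspa5, Hsp90b1 and Calr hold the ER stress response element in their windows, and their values after TGFβ went in unlike directions.

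Co-chaperones were also split, while the disulfide isomerases moved the same way. Dnajb9, a Hsp40 partner of BiP, rose by 0.49 ± 0.09 (adjusted p = 0.0154, edgeR), with 585, 766, 634 and 672 counts, which after scaling are 12.3, 18.2, 14.7 and 19.6 CPM. Sdf2l1, another partner of BiP complexes, stood at 28.3, 20.6, 26.8 and 18.2 CPM and fell by 0.51 ± 0.08 (adjusted p = 0.00935, edgeR). The disulfide isomerase genes both rose: Pdia3 by 0.38 ± 0.07 (482, 639, 473 and 604 CPM, adjusted p = 0.0112, edgeR) and Pdia4 by 0.29 ± 0.07 (196, 251, 197 and 229.9 CPM, adjusted p = 0.0270, edgeR). DESeq2's Wald test did not call Hsp90b1 (adjusted p = 0.0501), Dnajb9 (adjusted p = 0.0658) or Pdia4 (adjusted p = 0.0707).

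Of the degradation factors, Herpud1 changed most. It encodes a membrane protein that organises the ER ubiquitin ligase complex, stood at 275, 70.4, 283 and 99.6 CPM, and fell, with a log2 change of -1.74 ± 0.13 (adjusted p = 0.00181, edgeR). It was 3.91-fold lower in the TRF1ΔN line (3.76 to 4.07) and 2.85-fold lower in the Vp16-TRF1ΔN line (2.74 to 2.96). Edem1, a lectin that sends misfolded glycoproteins to degradation, was level at 124, 133, 129 and 135 CPM and did not pass (adjusted p = 0.337, edgeR).

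Transcription factor genes of the ER differed among themselves. Creb3l2, a membrane-bound factor related to ATF6 that raises secretory pathway genes, stood at 23.4, 82.0, 24.6 and 57.9 CPM and rose by 1.53 ± 0.16 (adjusted p = 0.00334, edgeR). Xbp1 stood at 94.8, 143, 92.4 and 108 CPM and rose by 0.41 ± 0.11 (adjusted p = 0.0358, edgeR), a call lost without a term for the line (adjusted p = 0.0743) and then without either TRF1ΔN library or the untreated Vp16-TRF1ΔN library (0.19 to 0.44). Gene counts do not separate spliced from unspliced Xbp1 mRNA, the step that makes the active factor. Atf6 stood at 131, 96.4, 137 and 124 CPM and did not pass (-0.30 ± 0.09, adjusted p = 0.0577, edgeR).

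The response of each line was then set out separately, with no test, since each rests on 2 libraries. Counted here are genes averaging 1 CPM or more with a ratio of 2-fold or beyond whose exact 95% counting interval left out 1. In the TRF1ΔN line 3 members of the ATF4 arm were counted as higher (Trib3, Chac1 and Nupr1) and 8 as lower, against 8.4% and 10.9% of all genes (19.3% in either direction). For Vp16-TRF1ΔN cells 2 members passed this count as higher (Cbs and Nupr1) and 7 as lower, against 6.92% and 9.09% (16.0% in either direction). In both lines the same 2 ER arm members were counted, Creb3l2 and Herpud1. The median log2 ratios of the ATF4 arm were -0.47 and -0.55 in the respective lines, and those of the ER arm 0.27 and 0.15.

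**Figure D3:**
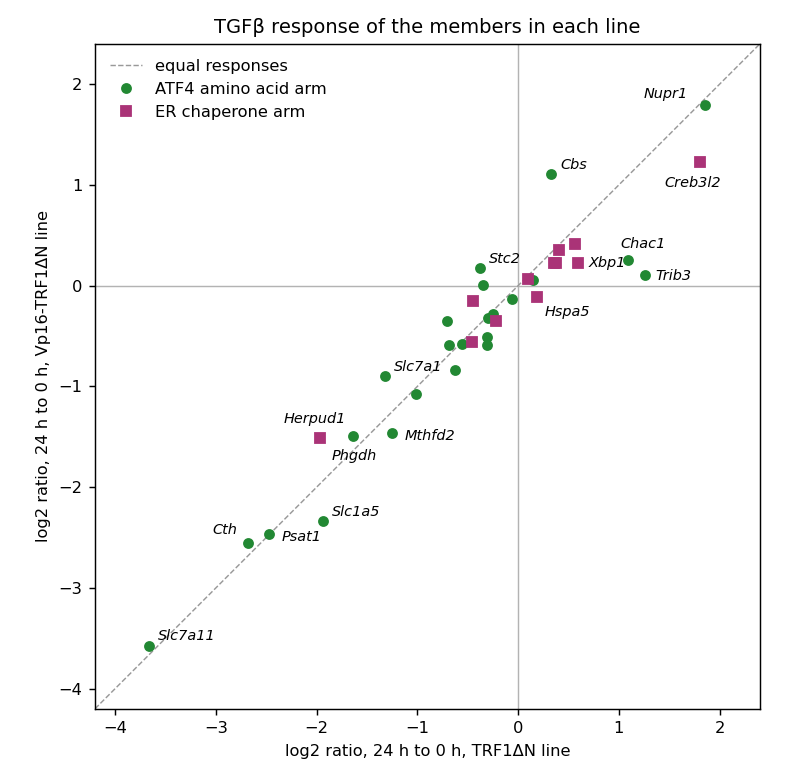
TGFβ response of the 36 tested members, as the log2 ratio of 24 h to 0 h in the TRF1ΔN line (horizontal) and in the Vp16-TRF1ΔN line (vertical); green circles are the ATF4 amino acid arm, purple squares the ER chaperone arm, and the dashed line marks equal ratios. Slc7a11, Cth and Psat1 lie near the line of equal ratios, whereas Trib3 (1.26 and 0.11) and Chac1 (1.09 and 0.25) lie below it and Cbs (0.33 and 1.11) above.

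Of the members with unlike ratios in the lines, Trib3 stood out. It encodes a pseudokinase that ATF4 and CHOP induce and that restrains ATF4, and it had 186, 396, 155 and 133 counts, or 3.90, 9.41, 3.60 and 3.88 CPM. The treated TRF1ΔN library was high and the other 3 were alike. Trib3 was 2.41-fold higher after TGFβ for TRF1ΔN cells (2.02 to 2.88) and 1.08-fold higher for Vp16-TRF1ΔN cells (0.850 to 1.37), a difference of log2 responses of -1.15 (interval -1.57 to -0.73). It was the 1 member counted for this difference, for which 2.73% of all genes were counted, 0.909% as lower and 1.82% as higher. The average response of Trib3 did not pass (adjusted p = 0.123, edgeR), and without a filter on low counts it did (adjusted p = 0.0391).

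Chac1 followed the same order of libraries, with 5.02, 10.7, 4.15 and 4.96 CPM. It was 2.14-fold higher for TRF1ΔN cells (1.83 to 2.51) and 1.19-fold higher for Vp16-TRF1ΔN cells (0.963 to 1.48), a difference of -0.84 (interval -1.21 to -0.46). Cbs was highest in the treated Vp16-TRF1ΔN library, with 10.5, 13.1, 12.1 and 26.2 CPM. It was 1.25-fold higher for TRF1ΔN cells (1.11 to 1.42) and 2.16-fold higher for Vp16-TRF1ΔN cells (1.94 to 2.41), a difference of 0.78 (interval 0.55 to 1.02). These intervals cover counting error only, and spread between cultures was not measured. The treated TRF1ΔN library, in which Trib3 and Chac1 were highest, also had the most counts in the construct row TRF1DN (7798). The part of construct amount in the unlike responses of Trib3, Chac1 and Cbs was not tested.

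**Figure D4:**
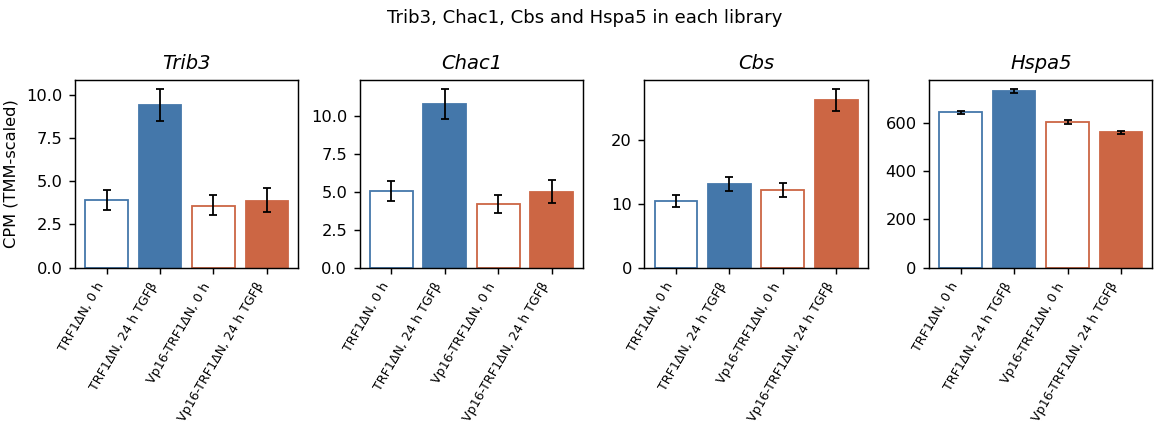
Level of Trib3, Chac1, Cbs and Hspa5 in the 4 libraries, in CPM from 0; bars are single libraries (open 0 h, filled 24 h, blue TRF1ΔN, orange Vp16-TRF1ΔN) and error lines are exact 95% Poisson intervals, which cover counting error only. Trib3 and Chac1 are highest in the treated TRF1ΔN library (9.41 and 10.7 CPM), Cbs in the treated Vp16-TRF1ΔN library (26.2 CPM), and Hspa5 ranges from 561 to 735 CPM.

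Smaller gaps between the responses were present in other members. Slc7a1 was 2.50-fold lower in the TRF1ΔN line (2.36 to 2.65) and 1.87-fold lower in the Vp16-TRF1ΔN line (1.75 to 1.99). Slc1a5 had the opposite order, 3.83-fold lower for TRF1ΔN cells (3.48 to 4.23) and 5.08-fold lower for Vp16-TRF1ΔN cells (4.44 to 5.83). For Creb3l2 the ratio was 3.51 (3.28 to 3.76) in TRF1ΔN cells against 2.35 (2.18 to 2.54) in Vp16-TRF1ΔN cells, and for Xbp1 it was 1.51 (1.45 to 1.57) against 1.17 (1.12 to 1.22). In contrast, Psat1 was lower by 5.56-fold (5.35 to 5.77) in TRF1ΔN cells and by 5.52-fold (5.28 to 5.77) in Vp16-TRF1ΔN cells, ratios that could not be told apart at this depth.

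Between the lines, most members differed by less than 2-fold. Averaged over both times, no member was called, nor was any of the 14305 genes (0.0%, edgeR), of which 1779 (12.4%) had an unadjusted p under 0.05. DESeq2's Wald test called 47 genes (0.361%) and no member. An unadjusted p under 0.05 was found for 8 members of the ATF4 arm, namely Chac1, Phgdh, Shmt2, Mthfd2, Slc7a5 and Slc1a5 with negative values and Cbs and Vldlr with positive ones in the Vp16-TRF1ΔN line, and for 0 members of the ER arm. The smallest adjusted p of a member was 0.397.

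Before TGFβ no member was counted as differing 2-fold between the lines, as against 0.594% of all genes (0.178% higher, 0.416% lower), and log2 ratios of the ATF4 arm ran from -0.34 (Slc7a5) to 0.29 (Vldlr). After TGFβ Trib3 and Chac1 were counted as lower in the Vp16-TRF1ΔN line, against 1.18% of all genes (2.11% higher, 3.29% in either direction). Trib3 was 2.42-fold lower, with an interval of 1.99 to 2.97, and Chac1 2.17-fold lower, with an interval of 1.81 to 2.60. Cbs was 2.0-fold higher (1.80 to 2.23), just under the threshold after a prior count of 2 was added (log2 ratio 0.998). The Vp16-TRF1ΔN to TRF1ΔN ratio of Vldlr was 1.22 at 0 h (1.18 to 1.26) and 1.56 at 24 h (1.49 to 1.62), and Vldlr was the 1 member of its arm for which both Vp16-TRF1ΔN libraries lay above both TRF1ΔN libraries (7.96% of all genes). Trib3, Chac1, Aars and, in the ER arm, Hspa5 had both below (7.85%). Comparisons of the lines at 24 h and of the responses share libraries, so their agreement is no separate evidence.

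Other genes of the pathway, from lists that hold no members, gave the setting of these changes. Of 15 tested kinases, phosphatases and bZIP partners around eIF2α, 5 rose and 5 fell, with a median log2 change of 0.10; for this and the following lists the shares over all genes are 23.1% rising and 25.4% falling. Those that rose most were Atf3 (1.82 ± 0.14), a stress-induced repressor, Ppp1r15a (0.90 ± 0.08), which encodes the GADD34 subunit that recruits a phosphatase to eIF2α, and Impact (0.88 ± 0.09), an inhibitor of the kinase GCN2. Nfe2l2 (-1.32 ± 0.12), the NRF2 factor that also drives Slc7a11, Cebpg (-0.71 ± 0.10), a partner of ATF4, and Atf5 (-0.52 ± 0.11) fell most. Of 19 cytosolic aminoacyl-tRNA synthetases 0 rose and 7 fell, with a median of -0.20, led by Vars (-1.275 ± 0.07), Farsb (-0.63 ± 0.06) and Nars (-0.45 ± 0.06). These calls are edgeR's at an adjusted p under 0.05.

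Of 27 tested genes in a list of other ATF4-linked metabolism and stress genes, 13 fell and 6 rose, with a median of -0.345. The cytosolic serine enzyme Shmt1 fell by 2.60 ± 0.08, Gclc, the catalytic subunit of the first step of glutathione synthesis, by 2.56 ± 0.18, and the cytokine gene Gdf15 by 2.27 ± 0.32. Ddit4, an inhibitor of mTORC1, rose by 1.59 ± 0.20, Vegfa, an angiogenic growth factor, by 1.475 ± 0.30 and the transporter gene Slc38a7 by 0.98 ± 0.08. Vegfa, like Trib3, was counted as lower in the Vp16-TRF1ΔN line at 24 h and for the difference of responses (-1.18), and Gdf15 was counted in the other direction for that difference (1.17).

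Of 20 tested sensors and degradation genes of the unfolded protein response, 8 rose and 3 fell, with a median of 0.19. Creb3l1, a relative of Creb3l2 with a role in collagen secretion, had 50, 1073, 32 and 885 counts and rose by 4.83 ± 0.17. Creb3 (0.53 ± 0.08) and Wfs1 (0.47 ± 0.10) rose, and Creb3l3 (-2.21 ± 0.26), Atf6b (-0.395 ± 0.08) and the protease gene Mbtps2 (-0.37 ± 0.07) fell. Of 28 other ER chaperones and folding enzymes 5 rose, 5 fell and 18 did not pass, with a median of 0.05. The risers included Pdia5 (1.45 ± 0.23) and 2 genes for collagen folding, Fkbp14 (1.41 ± 0.10) and the collagen chaperone gene Serpinh1 (0.78 ± 0.08), while Ero1lb (-1.19 ± 0.17), Dnajc10 (-0.98 ± 0.07) and Fkbp2 (-0.72 ± 0.07) fell most.

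**Figure D5:**
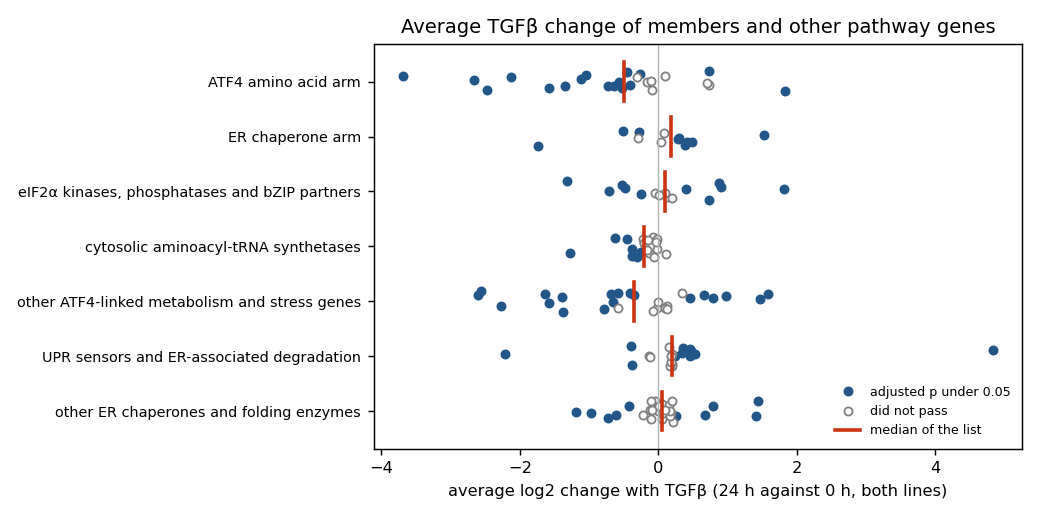
Average log2 change with TGFβ of every tested gene in both arms and in 5 lists of other pathway genes; filled points passed edgeR's test at an adjusted p under 0.05, open points did not, and red bars are list medians. The median lies lowest for the ATF4 amino acid arm (-0.49) and at 0.185 for the ER chaperone arm.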

How the data were processed

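Libraries were made from total RNA after rRNA depletion, per the labels' protocols. Reads were, per the submitters' processing notes, checked with FastQC, aligned to mm10 with STAR and counted with HTSeq, with DESeq2 for normalization; the sources used here give no versions, annotation release or strand setting. The deposited raw count table gave all counts. The authors' log2 values equal log2 of the count over DESeq2's size factor, plus 1, and served as an alternative. The 4 construct rows (0.0129% to 0.0582% of counts) were left out of library sizes and tests.

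Libraries were scaled with TMM over all genes. The additive model used edgeR 4.0.16 (glmQLFit) on 14305 genes that passed filterByExpr, with Benjamini-Hochberg adjustment; tests are two-sided. SE is the log2 change over the root of the F statistic. Log2 ratios of pairs use a prior count of 2, folds use none, and their intervals are exact and conditional (95%); the interval of a difference of responses rests on Poisson variances. Intervals cover counting error only. Alternatives were DESeq2 1.42.0, its size factors, limma 3.58.1 on the authors' log2 values, no filter, no mitochondrial genes, models with 1 term, libraries left out, and other thresholds. The model fits were also run on simulated data with a common spread for all genes, few changed genes and additive effects. In these data 48.5% of genes were called, so that run cannot vouch for the calls.

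Members and lists were chosen with earlier results of these data known. Labels do not say whether libraries are separate cultures. Described in full were Atf4, Ddit3, Hspa5, Xbp1, members called and at least 2-fold changed in both lines, members called for the line, and members counted in any untested comparison. Of each other list the 3 called genes with the highest and the 3 with the lowest change were named. Gcn1 and Derl3 were listed but not analysed here. Symbols, positions and exon lengths are from GENCODE M21 (GRCm38), and near-identical transcripts (95% over 200 bases) were found with BLAST 2.17.0. RefSeq windows were found for 32 of 37 members (none for Cth, Slc7a5, Slc7a3, Slc1a5 and Atf6).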

Additional observations from a re-analysis of the deposited data

Results flagged for a closer look

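Hspa5 moved in opposite directions in the lines: its log2 ratio of 24 h to 0 h was 0.19 in the TRF1ΔN line and -0.11 in the Vp16-TRF1ΔN line, and both 95% counting intervals excluded no change. The difference was not tested, since each group holds 1 library. Both intervals cover counting error only, and spread between cultures was not measured. Of the 11777 genes that averaged 1 CPM or more, 1.59% had responses of opposite direction by the same measure, and Hspa5 was the 1 member among them.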

How the results depend on the processing

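The count of members that fell in the ATF4 arm (15) and of members that rose in the ER arm (6) stayed within 1.5 times of these values with DESeq2's size factors, DESeq2's Wald test, no filter, limma on the authors' values, mitochondrial genes left out and no term for the line. The count of ATF4-arm members that rose (2) was 4 without a filter on low counts, where Trib3 and Chac1 were added, and 1 without a term for the line. With no term for the line and each library left out in turn, which leaves 1 library in an arm and assumes that it varies like the others, 7 to 15 members of the ATF4 arm fell and 1 to 3 rose, and in the ER arm 1 to 6 rose and 1 to 4 fell. Without the TRF1ΔN library at 0 h 7 ATF4-arm members fell and without the Vp16-TRF1ΔN library at 0 h 9; in the ER arm 1 rose and 1 fell without either, and 3 rose without the treated TRF1ΔN library. The medians ran from -0.54 to -0.454 in the ATF4 arm and from 0.129 to 0.289 in the ER arm. Hspa5, which was not called, ran from a log2 change of -0.17 without the treated TRF1ΔN library to positive values in the other fits. With a 1.5-fold threshold 5 ATF4-arm members in place of 2 were counted between the lines at 24 h, and 3 in place of 1 for the difference of responses. The labels give no replicate numbers, so no pairing by number could be made; the additive model compares 0 h with 24 h within each line, with 1 residual degree of freedom. With 3 libraries that model has no residual degree of freedom and returns the ratio of the complete line.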
